A study of Drosophila melanogaster with 4 samples.

Results

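The outermost 200 kb of chromosome arms 2L, 3L, X and 3R was examined for heterochromatin protein HP1a in 800 consecutive windows of 1 kb, counted from the distal end of each arm sequence, with 200 windows on each arm. The windows were set by position and are 800 of the 97881 full windows of these arms. Earlier results of these data were known when the regions were chosen. In coordinates of FlyBase release 5 the ends span 1 to 200000 on 2L, 3L and X and 27705054 to 27905053 on 3R, whose distal end has the high coordinates. HP1a was mapped by chromatin immunoprecipitation and sequencing (ChIP-seq) with antibody wa191 in nuclei of wild-type Oregon-R-modENCODE larvae of the third instar. There were 2 ChIP libraries and 2 input libraries of the same strain, genotype and stage, and each input was the background for the ChIP library of its number. No mutant or treated larvae were part of the design. The replicates are not said to come from separate collections of larvae, so their spread may be technical. Many tissues entered each library, so fewer cells with HP1a at a site and less HP1a per cell cannot be told apart.

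HP1a binds histone H3 methylated on lysine 9 through its chromodomain and packs heterochromatin. Drosophila has no telomerase. Its chromosome ends are kept up by arrays of telomeric retrotransposons, and inside these lie telomere-associated repeats that can silence genes inserted there. HP1a is also part of the protein cap that protects chromosome ends from fusion. How close each arm sequence runs to the terminal arrays is not given in the sources used here.

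Each ChIP library has a list of enriched clusters, and a further list belongs to the series as a whole. A cluster has a start, an end and 1 value, which is the authors' own and is read as log2 of ChIP over input (differences between repeated values match base 2). Read numbers are unknown, so the 2 replicates are the only measure of error, and no exact paired permutation test over 2 libraries can go below p = 0.5. The narrowest cluster was 1301 bp wide in both replicate lists and 1001 bp in the series list, so shorter stretches of HP1a may be missing. Clusters touched few of the windows. A window was called where at least 500 of its bases lay under clusters. Of the 800 windows, 55 were called in replicate 1, 58 in replicate 2 and 52 in both, which is 6.5%. Over all 89881 windows of the 4 arms outside the proximal 2 Mb, the shares called were 2.44% in replicate 1, 2.42% in replicate 2 and 1.90% in both. In the series list 75 of the 800 were called, against a background of 4.20%. Clusters of the series list touched 92 windows by at least 1 base, and the remaining 708 were touched in no list.

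The 4 ends were not alike. Covered bases made up 13.7% ± 1.7 of the X end, 9.39% ± 0.05 of the 3L end, 3.33% ± 0.09 of the 2L end and 1.17% ± 0.05 of the 3R end (SD, n = 2). Neighbours in this order differed by more than the replicates did. Windows called in both replicates numbered 25 on X, 17 on 3L, 8 on 2L and 2 on 3R, or 12.5%, 8.5%, 4% and 1%. In the rest of these arms outside the proximal 2 Mb the shares were 3.56%, 1.23%, 1.91% and 1.03%, so 3R was near its background. The X end held 47.7% of all covered bases of the 4 ends in replicate 1 and 51.6% in replicate 2, and the 3L end held 35.6% and 32.5%. X was the only one of the 4 arms on which the first 1 kb was called in any list.

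**Figure D1:**
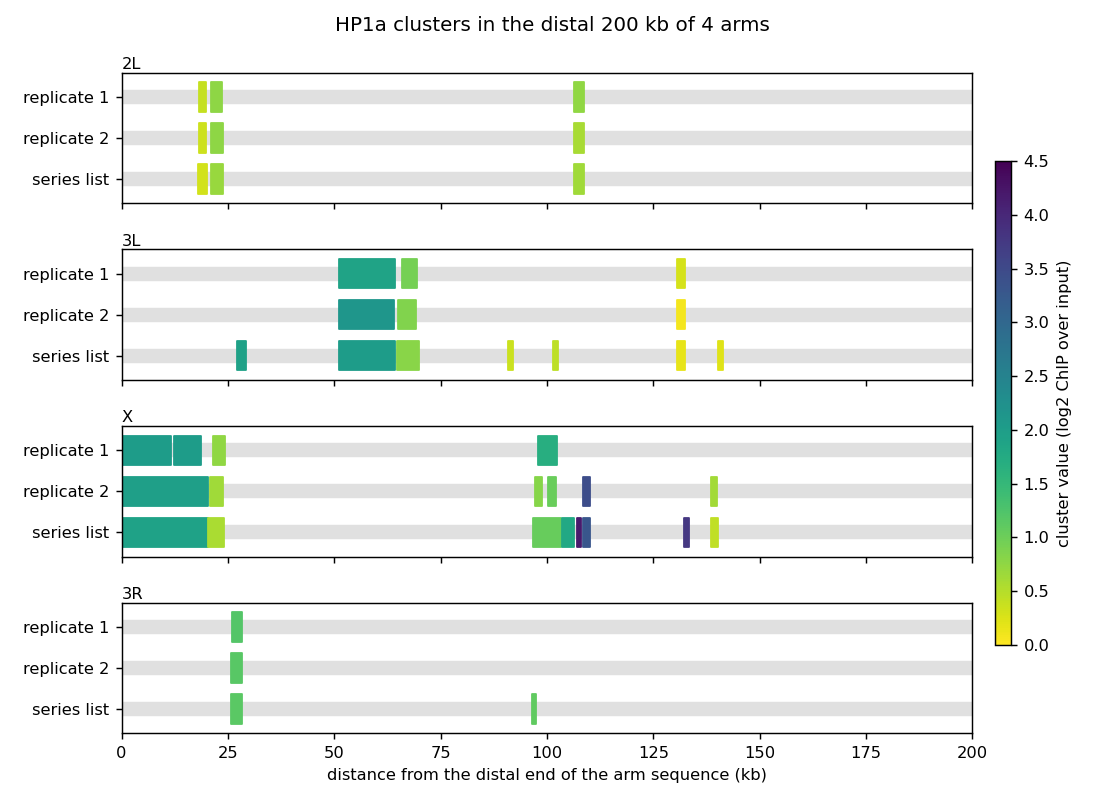
Clusters in the distal 200 kb of 2L, 3L, X and 3R, placed by distance from the distal end in kb, with 1 row for each list and colour for the cluster value (log2 of ChIP over input). X carries a block that starts at its first bases, 3L carries one from about 51 kb, and 3R has 1 cluster in each replicate.

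On X the cover began at the tip of the sequence. In replicate 1 a cluster ran from 158 to 11593 with a value of 2.03 and another from 12322 to 18711 with 2.04, which is 4.10-fold both times. In replicate 2 a single cluster of 20287 bp ran from 91 to 20377 with 1.98, or 3.94-fold. Both replicates thus placed nearly the same level of enrichment on the tip. Only replicate 1 split it, and its cover ended at 18711 rather than at 20377. The first 20 kb was 89.1% covered in replicate 1 and 99.6% in replicate 2. Of the 887 clusters of replicate 1 on these 4 arms outside the proximal 2 Mb, 5 were wider than its larger tip cluster. In replicate 2, 2 of 879 were wider than its tip cluster. A run of 19 windows, from 1 to 19000, was called in both replicates. It was the longest such run in the 4 ends.

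Directly inside the tip lay a weaker cluster, from 21401 to 24266 with 0.74 in replicate 1 and from 20689 to 23737 with 0.65 in replicate 2. The value thus dropped by more than 1 on the log2 scale within a few kb, and did so in both libraries. The 3 windows from 21001 to 24000 were called in both. The next 72861 bp, from 24267 to 97127, had no cluster in either replicate.

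A second part of the X end, between 96001 and 111000, was covered unlike in the 3 lists. Replicate 1 had 1 cluster there, from 97967 to 102365, with a value of 1.68 that 7 other clusters of its list held exactly. Replicate 2 had clusters from 97128 to 98894 with 0.82 and from 100302 to 102093 with 1.02, both overlapping it. The values in replicate 1 were higher by 0.85 and 0.65, the widest gaps of any overlapping clusters in the 4 ends. Replicate 2 also had a cluster from 108509 to 110142 with 3.45, or 10.9-fold, where replicate 1 had none. A single cluster among the 879 of replicate 2 had a higher value. It held its value in common with 1 other cluster of the list. In all, 29.3% of the 15 kb was covered in replicate 1, 34.6% in replicate 2 and 81.4% in the series list. Farther in, replicate 2 alone had a cluster from 138613 to 139946 with 0.62, of 1334 bp. These 2 clusters were the only ones in the replicate lists of the 4 ends with no overlap in the other replicate, and the one from 108509 was the wider.

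On 3L the tip carried no cluster in either replicate until 51081. From there a wide cluster ran to 64159 in replicate 1 with a value of 1.89, or 3.71-fold, and from 51107 to 63935 in replicate 2 with 2.14, or 4.41-fold. Its distal edge differed by 26 bp and its inner edge by 224 bp between the replicates. With widths of 13079 bp and 12829 bp it was the fourth widest in replicate 1 and the fifth widest in replicate 2 on the 4 arms outside the proximal 2 Mb. All 13 windows from 51001 to 64000 were called in both, the second longest run. A flanking cluster followed, from 65835 to 69518 with 0.95 in replicate 1 and from 65045 to 69258 with 0.85 in replicate 2. As on X, the wide cluster was followed inwards by a narrower one of lower value. The remaining cluster of the 3L end was among the weakest of the lists, from 130465 to 132422 with 0.29 in replicate 1 and from 130608 to 132413 with 0.08 in replicate 2. A value of 0.08 is 1.05-fold, and only 1 of the 879 clusters of replicate 2 was lower.

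The 2L end had 3 small clusters, each found in both replicates. The most distal ran from 18160 to 19887 with 0.39 in replicate 1 and from 18167 to 19943 with 0.34 in replicate 2. The next ran from 20995 to 23543 with 0.76 and from 21034 to 23865 with 0.77. The last ran from 106405 to 108657 with 0.75 and from 106449 to 108630 with 0.59. All of them were below 2-fold, and the widest was 2832 bp. From 108658 inwards the rest of the 2L end was free of clusters in both replicates.

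The 3R end had 1 cluster in each replicate. It ran from 27876809 to 27879081 with 1.21 in replicate 1, or 2.31-fold, and from 27876818 to 27879240 with 1.16 in replicate 2, or 2.24-fold. Its outer edge lay 25973 bp and 25814 bp from the distal end. Its value was thus above all those of 2L, although the 3R end was the least covered. The 171755 bp inside it held no cluster in either replicate.

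Each end was set against the rest of its own arm without the proximal 2 Mb, where pericentric heterochromatin lies. The X end was covered over 13.7% ± 1.7 against 4.67% ± 0.07 in the rest of X. The 3L end was covered over 9.39% ± 0.05 against 1.59% ± 0.06, and the 2L end over 3.33% ± 0.09 against 2.33% ± 0.06. The 3R end had 1.17% ± 0.05 against 1.36% ± 0.05 (SD, n = 2 in each). The difference was 9.07 points on X, 7.80 on 3L and 1.00 on 2L, each of the same sign in both replicates and larger than the difference between them. On 3R it was -0.19 points, -0.26 in replicate 1 and -0.11 in replicate 2, which is not larger than the difference between them. The excess rests on few clusters. Without the widest cluster of each end it was 1.32 points on 3L and -0.35 on 2L. On X it was then 2.21 points in replicate 1, where the tip is split into 2 clusters and 1 of them stayed, and 0.07 in replicate 2, where the whole tip cluster was left out, so the replicates differed here. Without the first 25 kb the X end was covered over 2.51% in replicate 1 and 3.73% in replicate 2, which is 2.10 and 0.99 points less than the rest of X. Both settings were chosen after seeing the data. Leaving out the widest cluster could only lower the excess, because the rest of the arm kept all its clusters. The 2L difference was also negative, at -1.11 points, against the next 200 kb. It was -0.23 points when clusters below their list's median value were left out. That median, over all clusters of the list, was 1.79 in both replicates, above every cluster of the 2L end. The 2L end thus had no cover left, and the sign was fixed in advance.

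Among all 200 kb segments of an arm outside the proximal 2 Mb, the 3L end ranked first of 112 in replicate 1 and second in replicate 2, with 9.36% and 9.42% against medians of 1.20% and 1.01% in the other segments. The X end ranked 8 of 102 in replicate 1 and 4 in replicate 2, with 12.5% and 14.9% against medians of 3.64% and 3.59%. The 2L end ranked 22 and 18 of 105, and the 3R end 58 and 49 of 129. On X and 2L other segments thus carried more cover than the end, up to 21.6% and 27.2% on X and up to 36.1% and 40.9% on 2L. These ranks are a description, without a test.

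**Figure D2:**
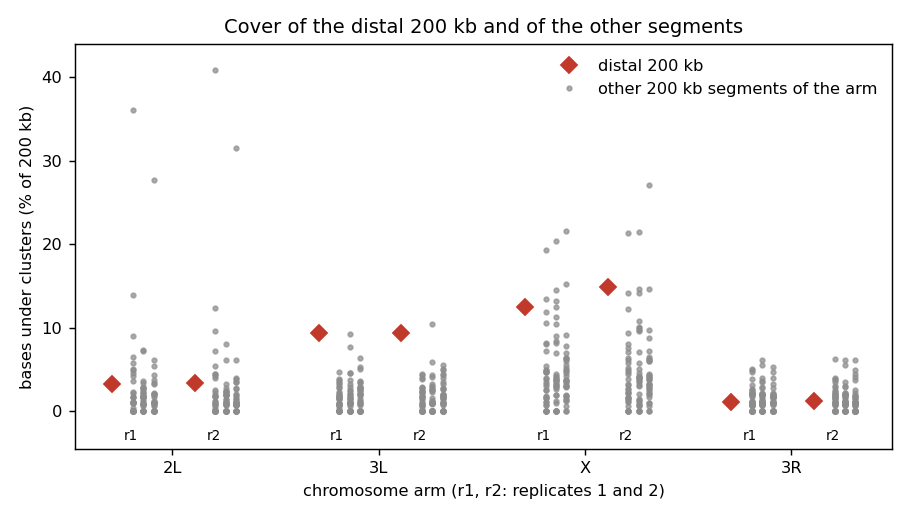
Percent of bases under clusters in the distal 200 kb (red diamonds) and in each other 200 kb segment outside the proximal 2 Mb (grey points) of 2L, 3L, X and 3R, with replicates 1 and 2 side by side. The 3L diamonds, at 9.36% and 9.42%, lie first and second on their arm, and the 3R diamonds, at 1.14% and 1.21%, lie among the other segments.

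Farther in, the cover of X and 3L was lower. In the next 200 kb of each arm it was 1.54% ± 0.01 on X, 1.77% ± 0.11 on 3L and 1.17% ± 0.01 on 3R, while on 2L it was 4.44% ± 0.25, above the 3.33% ± 0.09 of the end itself (SD, n = 2). The first cluster inside the 200 kb limit lay at 222524 on 3L in replicate 1, with 0.64, and at 222604 in replicate 2, with 0.50. On X it lay at 322730 with 1.31 and at 322574 with 1.39, and on 2L at 357719 with 1.17 and at 357678 with 1.09. On 3R it lay 364713 bp and 364765 bp from the distal end, with 1.17 and 0.96. The series list had weaker clusters nearer the end on 2L, the first at 221974 with 0.34, and on 3R, 354012 bp from the end with 0.32.

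Cluster values at the ends were spread more widely than a single summary shows. The 11 clusters of replicate 1 had a median of 0.95 and ran from 0.29 to 2.04, against a median of 0.71 over the 876 clusters in the rest of the 4 arms outside the proximal 2 Mb. The 13 of replicate 2 had a median of 0.82 and ran from 0.08 to 3.45, against a median of 0.67 over 866. By window the weight falls on the wide blocks. The 52 windows called in both had a median value of 1.89 in replicate 1 and 1.98 in replicate 2.

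The replicates found nearly the same sites. All 11 clusters of replicate 1 overlapped a cluster of replicate 2, and 11 of the 13 clusters of replicate 2 overlapped one of replicate 1. Of 61 windows called in either replicate, 52 (85.2%) were called in both, against 63.8% of 2596 in the rest of the 4 arms. The Jaccard index of covered bases, those in both over those in either, was 0.814 in the ends, against 0.629 in the rest. On 2L, 3L and 3R the ends had 0.928, 0.926 and 0.931, and on X 0.714. Neighbouring windows share clusters, so no test was made of this difference. Over the 12 overlapping pairs the median absolute difference in value was 0.10 on the log2 scale, and the value was higher in replicate 1 in 10 of the 12. The exceptions were the 2L cluster from 20995 and the wide 3L cluster. Only 9 of the 24 edges lay within 100 bp of each other, so windows at cluster borders are less certain than those inside. On X the replicate 2 tip cluster and the replicate 1 cluster from 97967 each enter 2 pairs. Some edges compared there are thus not the same border, and those clusters count more than once in the values over 12 pairs.

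**Figure D3:**
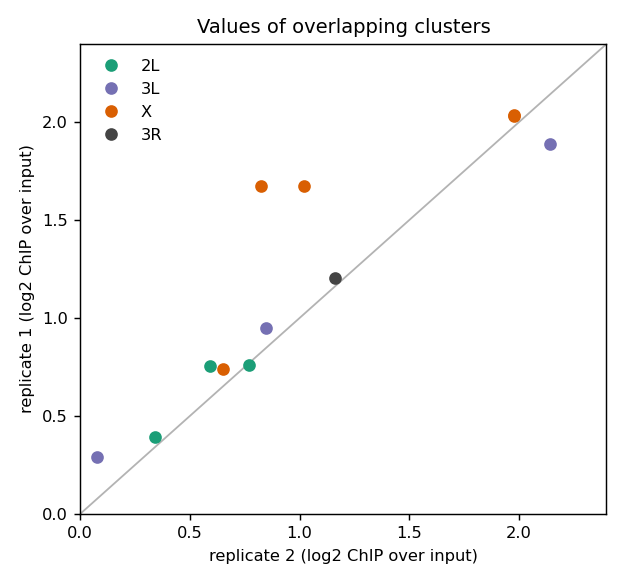
Values (log2 of ChIP over input) of the 12 overlapping cluster pairs in the 4 ends, with replicate 2 on the x axis, replicate 1 on the y axis and a line of equal values. Most pairs lie close to the line, and the 2 pairs of X with replicate 1 at 1.68 stand off it; the 2 pairs at the tip of X fall on nearly the same point.

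The series list held 20 clusters in the 4 ends, of which 8 touched none of the replicate clusters. By window, 14 of the 75 called in the series list were called in neither replicate. In the rest of the 4 arms this was 1140 of 3702 (30.8%), so such calls were no trait of the ends. No window touched in a replicate was missed by it. It joined the tip of X into a cluster from 82 to 20336 with 1.91, followed by one from 20386 to 24196 with 0.58. The wide 3L cluster ran from 51040 to 64240 with 2.02, the outermost 2L cluster from 18068 to 19994 with 0.31, and the 3R cluster from 27876796 to 27879242 with 1.16. Set beside the 12 pairs, the series value was below both replicates in 7 and between them in 5.

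The 8 clusters found in the series list alone ran from 0.23 to 4.19 in value. On 3L they were the most distal cluster of that arm, from 27246 to 29232 with 1.92, and 3 short ones with 0.36, 0.45 and 0.23. On 3R there was 1, from 27807546 to 27808546, with 1.09. On X there were 3, from 103546 to 106284 with 1.81, from 107084 to 108110 with 4.19 and from 132292 to 133292 with 3.77. The value 1.92 was held exactly by 12 other clusters of the series list, and 3.77 by 22 others. Such repeated values occurred in 6 of the 20 series clusters (30%), against 12.8% of the 1592 clusters in the rest of the 4 arms. The replicate lists showed no such excess. Replicate 1 had 1 of 11 (9.09%) in the ends against 13.0%, and replicate 2 had 1 of 13 (7.69%) against 10.4%. With 1 such cluster in each list, these shares cannot be told from their background. The highest values in the ends, of 3.30 and above, all lay between 107084 and 133292 on X, and every one was a repeated value, in replicate 2 as well. The reads behind them are unknown.

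Genes could not be laid under the clusters, since gene positions were given for Release 6 alone. By their order in that gene table, the outermost protein-coding genes were l(2)gl, Ir21a and Cda5 on 2L, mthl8, CG43149 and Lsp1gamma on 3L, SteXh:CG42398, CG17636 and RhoGAP1A on X, and Map205, mod and krz on 3R. The gene l(2)gl encodes a cell polarity protein known as a tumour suppressor in larvae, Ir21a a receptor used in sensing cool, Lsp1gamma a larval serum storage protein and Map205 a microtubule-binding protein. Whether HP1a covered any of them was not tested.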

How the data were processed

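Per the submitters' processing notes, the authors aligned reads with Bowtie 0.12.7. Coordinates are FlyBase release 5 and arm lengths are those given per the file headers. Which caller and threshold gave the clusters, and how the series list was made, is not given in the sources used here. The deposited log2 value of a cluster has no stated unit. It was read as log2 because, among the 12 most repeated values of a list, 57, 40 and 55 of 66 differences (replicate 1, replicate 2, series list) were log2 of ratios with denominators up to 12, against 0 in each list for the natural log and 4, 2 and 6 for log10.

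From the lists, covered bases (overlapping clusters merged) and the value of the cluster with most overlap were computed for each 1 kb window. Cover is given per replicate with mean and SD. Arm 2R was not used here. The regions named are the most distal cluster of each list, runs of 3 or more called windows, the highest values and unshared clusters. Others were named because the ends hold few. The regions and measures were chosen with earlier results of these data known. Window cover was tested on simulated data. Alternatives were stricter values, joining within 1 kb, ends of 100 kb or 400 kb, other window rules, other parts to compare with, the series list and leaving out a replicate. Python 3.11.15, numpy 2.4.6, pandas 2.3.3 and matplotlib 3.10.9 were used.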

Additional observations from a re-analysis of the deposited data

How the results depend on the processing

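No paired analysis was possible because ChIP and input libraries share replicate numbers but the inputs have no list of their own to compare. The end and the rest of an arm were compared within each replicate. Among 98 values of cover, differences, called windows, cluster values and distance under other settings, 33 stayed within the replicate spread, 59 went past it and 6 turned round a difference that had exceeded it. Leaving out a replicate always moves a mean by less than the SD. For cover, differences and cluster values that setting was thus bound to stay within the spread. Its values make up most of the 33 and show nothing about stability. Depth is unknown, and the cause of each change was not tested.

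Cover of the ends of 2L, 3L, X and 3R, in that order, was 0%, 6.48%, 9.94% and 0% when clusters below their list's median value were left out (written "higher values" from here), and 3.60%, 13.0%, 19.4% and 1.72% in the series list. It was 4.44%, 16.9%, 23.9% and 2.35% in the distal 100 kb. In the distal 400 kb it was 3.89%, 5.58% and 7.64% on the first 3 arms. Without the widest cluster it was 1.99%, 2.92%, 5.81% and 0%, and without the first 25 kb 1.27%, 10.7%, 3.12% and 1.34%. The medians behind the higher values were 1.79 in both replicates, above every cluster of the 2L and 3R ends. The 0% cover there, and the negative 2L and 3R differences with higher values, were thus fixed in advance. The 3R difference (-0.090 points) counts as within the replicate spread for that reason. The 3R end had 1 cluster in each replicate, so its 0% cover and its -1.36 points without the widest cluster were fixed too. On every arm that setting could only lower the difference, because the rest of the arm kept all its clusters.

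The end minus the rest of its arm changed sign on 2L with higher values (-0.23 points), against the whole rest (-2.49), against the next 200 kb (-1.11), without the widest cluster (-0.35) and without the first 25 kb (-1.06). It did so on X without the first 25 kb (-1.55). On 2L it was 0.11 in the series list, 2.11 for 100 kb and 1.58 for 400 kb. On 3L it was 6.46 with higher values, 10.2 in the series list, 15.3 for 100 kb, 3.99 for 400 kb, 2.26 against the whole rest, 7.63 against the next 200 kb, 1.32 without the widest cluster and 9.14 without the first 25 kb. On X it was 10.8 in the series list, 19.3 for 100 kb, 2.94 for 400 kb, 12.2 against the next 200 kb and 1.14 without the widest cluster, a mean of 2.21 in replicate 1 and 0.07 in replicate 2. On 3R it was -0.64 in the series list, 0.99 for 100 kb, -0.45 against the whole rest, 0.005 against the next 200 kb, -1.36 without the widest cluster and -0.020 without the first 25 kb.

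Windows called in both replicates made up 11.5% in 100 kb and 4.25% in 400 kb, against the 1.90% over all windows outside the proximal 2 Mb. They made up 4% with higher values, 7.5% with at least 1 base, 4.5% with all 1000 bases and 6% of windows of 2 kb. For these 4 settings no background share was computed, so they do not show whether the ends stayed above it. In the series list alone the share called was 9.38%, against 4.20%. In single replicates it was 6.88% in replicate 1 against 2.44%, and 7.25% in replicate 2 against 2.42%. The share of windows called in either replicate that were called in both was 94.1% with higher values and ran from 75% to 88.5% otherwise. The Wilson 95% interval of the 85.2% in the report, which covers counting error only and takes windows as independent, ran from 74.3% to 92.0% and held 7 of these 8 values. The share needs both replicate lists and has no value in the series list or with a replicate left out. The median cluster value, 0.89 as the mean of both replicates, was 1.02 in 100 kb and 1.00 in 400 kb. With higher values it was 2.09 (3 clusters in each), but that setting allows no median below the list medians of 1.79. The distal 20 kb held 37.3% of the cover of the 4 ends, the distal 50 kb 52.1%, and in the series list the distal 20 kb held 29.0%.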
